A study of Mus musculus with 9 samples.

Results

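Lypd8/Defb18 cells are principal cells of the mouse caput epididymis, defined here by the UMI share of 5 genes, Lypd8, Defb18, Defb47, Defb45 and Spag11b. A cell was a member when the rank of this share within its library stood at or above percentile 70 and above the ranks of 2 other gene sets. The Cst12/Lcn8 set held Cst12, Lcn8, Adam28, Teddm2 and Defb48, and the Lcn5/Defb30 set held Lcn5, Ntsr2, Defb30, Spag11a and Rnase13. The rule kept 2381 cells, 534 in the P42 library, 1076 in P56 replicate 1 and 771 in P56 replicate 2. They were drawn from 10521 caput cells within the limits on genes, UMIs and lineage genes, and from 44869 barcodes in the whole series. No member barcode was shared between the caput libraries.

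The data are single-cell RNA-seq of untreated wild-type C57BL/6J male mice, in 9 libraries. The epididymis was cut into caput, corpus and cauda at postnatal day 42 (P42, 1 pool of mice) and day 56 (P56, 2 pools). The 3 segments of a pool came from the same mice, each segment was dissociated and sequenced as a library of its own, and every library therefore mixes several animals. Total UMIs per caput library were 50655384 at P42, 33881990 in P56 replicate 1 and 37040481 in P56 replicate 2, and members had medians of 6584, 6291 and 6593 UMIs in the same order. Values for 3 libraries are given throughout in the order P42, P56 replicate 1, P56 replicate 2, as CPM, the count of a gene scaled to a fixed total of UMIs, of the summed member cells.

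Principal cells are the tall secretory epithelium of the epididymal duct, and their secretions, which differ from zone to zone, bathe and coat the sperm as they mature. Beta-defensins are small cationic peptides first known as antimicrobials, and many of their genes are used almost only in this duct, where several of the peptides bind the sperm surface. Lypd8 belongs to the Ly6/uPAR family of proteins anchored in the membrane by a lipid, and is best known from the colon, where it keeps motile bacteria away from the epithelium.

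The 5 ranking genes lie on 5 chromosomes (RefSeq annotation of GRCm38.p6): Defb18 at chr1:18236402-18237476, Defb45 at chr2:152593191-152596485, Spag11b at chr8:19140759-19143010, Lypd8 at chr11:58379032-58390541 and Defb47 at chr14:62992375-63001180. They are thus not neighbours that share a promoter, and the stretches before the gene starts are shown because the rule sums these genes into 1 score. RefSeq promoter sequences were matched for 3 of the 5 genes. The 250 bases before the start (for Lypd8, before the first of 2 annotated starts) are printed 5′ to 3′ on the gene's strand. For Defb47 the only start in the promoter table lies inside the gene span given above, so the printed stretch is within that span and not before it. Capitals mark the androgen response half-site AGAACA and the PEA3 core AGGAAG, each searched on both strands.

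Lypd8 (chr11:58378782-58379031, plus strand): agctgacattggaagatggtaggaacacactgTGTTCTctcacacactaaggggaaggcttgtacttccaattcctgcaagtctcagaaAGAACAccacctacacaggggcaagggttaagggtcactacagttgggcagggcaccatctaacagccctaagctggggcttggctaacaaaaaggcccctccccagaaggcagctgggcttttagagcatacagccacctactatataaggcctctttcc
Defb47 (chr14:62997827-62998076, plus strand): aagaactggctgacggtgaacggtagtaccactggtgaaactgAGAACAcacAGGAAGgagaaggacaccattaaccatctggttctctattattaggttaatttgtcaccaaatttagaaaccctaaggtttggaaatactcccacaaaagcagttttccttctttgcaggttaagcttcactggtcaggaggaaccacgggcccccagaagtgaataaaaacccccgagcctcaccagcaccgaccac
Defb45 (chr2:152596486-152596735, minus strand): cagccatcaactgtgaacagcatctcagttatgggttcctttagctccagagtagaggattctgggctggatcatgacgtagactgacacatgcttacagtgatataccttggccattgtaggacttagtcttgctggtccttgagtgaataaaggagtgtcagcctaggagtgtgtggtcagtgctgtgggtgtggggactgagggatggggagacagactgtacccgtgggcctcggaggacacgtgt

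The stretch before Lypd8 held 2 half-sites and no PEA3 core, that printed for Defb47 held 1 half-site and 1 core, and that before Defb45 held neither. Among 32851 promoter stretches of the same length, 16.1% held the half-site and 29.5% the core. TATAAA, searched on the gene's strand, was in none of the 3 and in 7.59% of all stretches. A match is a string of letters and not a binding site.

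The ranking genes chose the cells, so their levels here are a description without a test. Spag11b, a beta-defensin-like sperm-associated antigen, was the highest of the 5, at 35227, 53058 and 45136 CPM. Defb47 followed at 17379.6, 20362 and 12553 CPM, and Defb18 stood at 7530.4, 6662 and 4218 CPM. Lypd8 reached 2057, 2306 and 1890.4 CPM and Defb45 1356, 1246 and 1046 CPM. Spag11b alone supplied 55.4%, 63.4% and 69.6% of the UMIs of the 5 genes, so the rank rested mainly on Spag11b and Defb47. Reads of Spag11b and its neighbour Spag11a, which is in the Lcn5/Defb30 set, may be hard to tell apart where the 2 transcripts are alike.

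Cst12/Lcn8 cells held 1549, 1433 and 669 CPM of Defb47 and 130.0, 147 and 54.7 CPM of Lypd8. Lcn5/Defb30 cells held 2213, 1843 and 670.4 CPM of Defb47 and 663, 519 and 139 CPM of Lypd8. Members were above both groups in every library for all 5 genes. Corpus principal cells held 9.83, 10.3 and 2.88 CPM of Defb47 and cauda principal cells 12.7, 2.95 and 2.06 CPM. Lypd8 was at 1.43, 0.300 and 0.641 CPM in the corpus and 2.71, 5.90 and 5.92 in the cauda, so both transcripts were close to absent from the other segments.

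The same transcripts were present in caput cells that should not make them. Caput macrophages, cells with UMIs of C1qa, C1qb and C1qc, held 3118, 5397 and 2121 CPM of Defb47, 1497, 1823 and 823 CPM of Defb18 and 471, 735 and 390.3 CPM of Lypd8. These levels were above those of Cst12/Lcn8 cells in every library. In all 3 libraries, of the 5 genes only Spag11b in Cst12/Lcn8 cells (16554, 26991 and 24647 CPM against 10759.9, 19060.0 and 15145 in macrophages) and Defb45 in Lcn5/Defb30 cells (695, 975 and 452 against 401, 545 and 339 CPM) were above macrophages. In members, Cst12 (541, 1440.1 and 1906 CPM) and Adam28 (1435, 1841 and 2421 CPM) of the Cst12/Lcn8 set were below macrophages (939.8, 1564 and 2009 and 2180.2, 2234 and 2592 CPM) in every library.

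**Figure D1:**
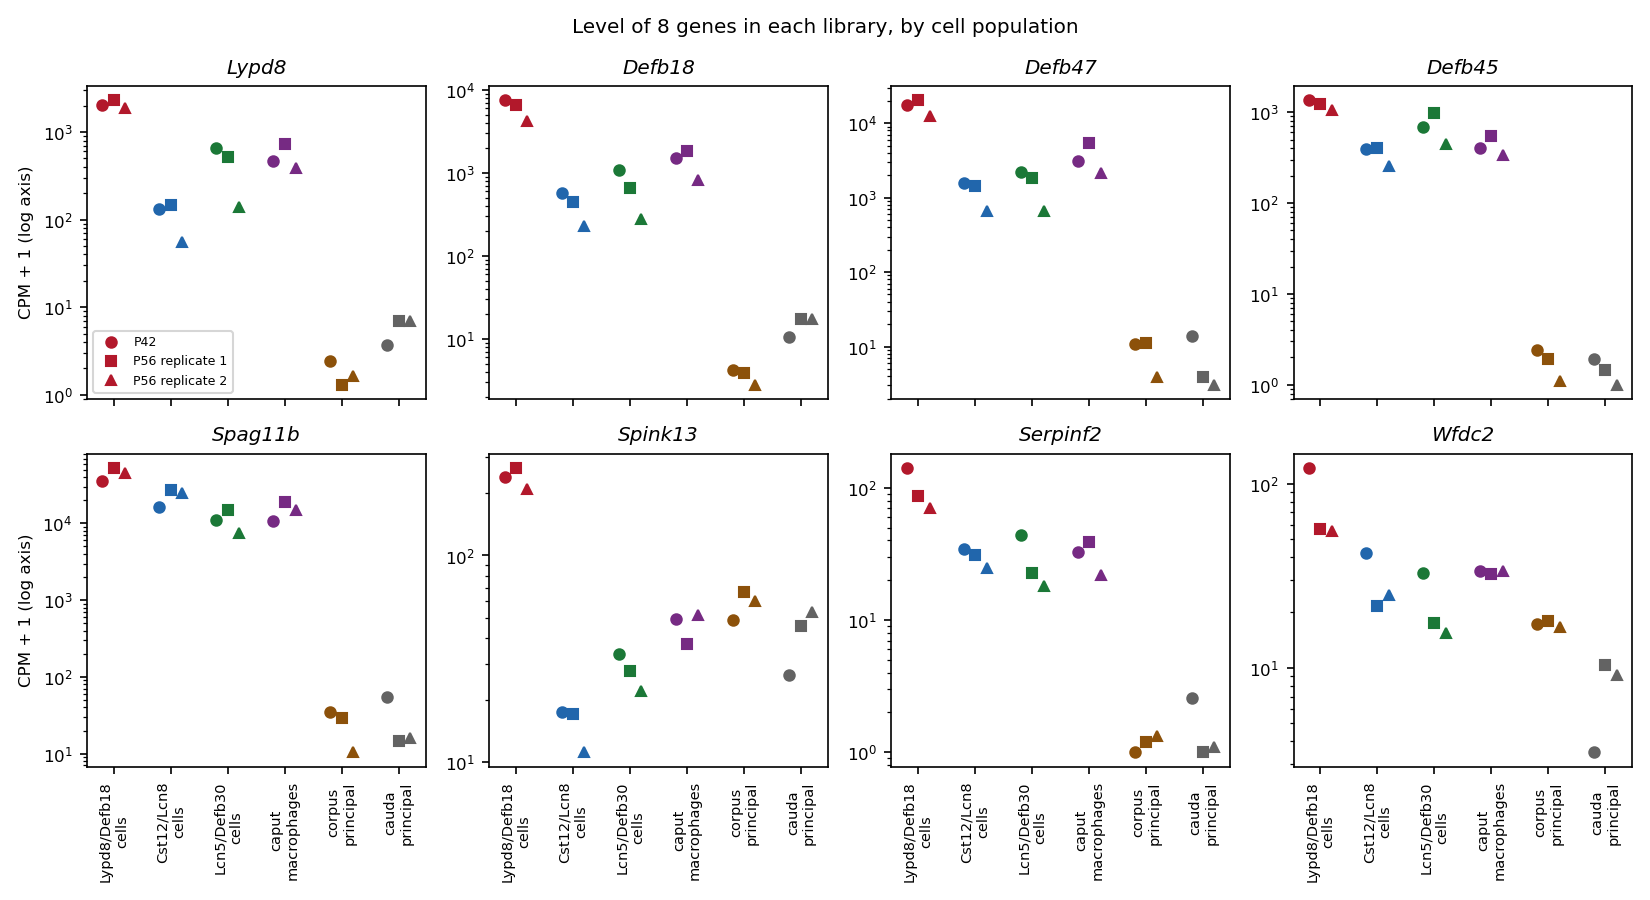
Level of the 5 ranking genes and of Spink13, Serpinf2 and Wfdc2 (y axis, CPM + 1 on a log axis) in 6 cell populations, with a symbol for each library and no error bar. The 3 libraries of Lypd8/Defb18 cells lie above every other population for all 8 genes, for Lypd8 between 1890.4 and 2306 CPM.

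Markers of the label and of other cell types were checked in the same cells. The list for principal cells held 3 genes, of which 2 were near 0 and do not stand for the whole list, Aqp9 (a water and glycerol channel) at 12.1, 12.8 and 9.09 CPM and Cftr (the chloride channel) at 6.32, 8.63 and 10.5 CPM. The summed level of 6 clear and narrow cell markers was 762.4, 547 and 836 CPM, against 4097, 3536 and 3267 CPM in caput cells with at least 60% of that list. The summed 5 basal markers were at 103, 40.6 and 60.6 CPM, the 6 macrophage markers at 142, 96.1 and 159 CPM and the 5 fibroblast markers at 589, 250.1 and 313 CPM, and no marker of these lists was at 0 in any library. Markers of sperm summed to 5.34, 69.1 and 298 CPM, and 2 of the 5 were at 0 at P42.

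The edge of the group was gradual. Members within 2 percentile points above the limit had a median share of the 5 genes of 2.34%, 4.14% and 3.07% of UMIs, and cells within 2 points below it 2.25%, 3.95% and 2.92%. The median share over all members was 5.63%, 7.76% and 5.91%. Another 314, 227 and 236 cells passed percentile 70 but ranked higher on one of the other sets.

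Members fell into a group that ranked second on the Cst12/Lcn8 set (195, 471 and 446 cells) and one that ranked second on the Lcn5/Defb30 set (339, 605 and 325 cells), here the Cst12 side and the Lcn5 side. The rank used all these cells, so what follows is a description without a test. Lypd8 was at 3035, 4029 and 4029.6 CPM on the Lcn5 side and at 506, 518 and 462 CPM on the Cst12 side, where it was near the level of macrophages. Defb45 followed Lypd8, at 1648, 1725 and 1718 against 892, 748 and 597 CPM. Defb47 went the other way, at 14434, 18688 and 11408 CPM on the Lcn5 side and 22052, 22099 and 13318 on the Cst12 side. Spag11b differed less, at 37169, 54877 and 45954 CPM on the Lcn5 side and 32146, 51170.2 and 44589 on the Cst12 side, and Defb18 was at 8318, 7129 and 4602 and 6281, 6178 and 3962 CPM.

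Genes outside the ranking sets also differed between the sides. Of 1941 such genes with 50 CPM or more in every library of a side, 43 (2.22%) were at least 2-fold higher on the Lcn5 side in all 3 libraries and 21 (1.08%) on the Cst12 side. The sides were set by the ranks on the Cst12/Lcn8 and Lcn5/Defb30 sets. A gene that goes with either set thus differs between them by construction, and these counts are no support for the split. The genes below are the leading ones of each direction, chosen after their values were seen. Defb15, another beta-defensin, was at 845, 1054 and 1359 CPM on the Lcn5 side and 88.2, 162 and 95.1 on the Cst12 side. Spink11, a Kazal-type protease inhibitor, was at 1037, 1475 and 2571 against 156, 291 and 283 CPM, and Pate6, a Ly6-like secreted protein of the prostate and testis expressed family, at 4911, 4950.4 and 5361 against 1162, 707 and 620.0 CPM. Macrophages carried 788, 2034 and 2566 CPM of Spink11 and 1043, 1124 and 1029 CPM of Pate6. Ppy, which encodes pancreatic polypeptide, stood at 96.5, 86.2 and 89.0 against 21.1, 13.4 and 11.6 CPM.

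On the Cst12 side the leading named genes included Cst8, a cystatin also called CRES, at 8901, 10081 and 11176 CPM against 2731, 4197 and 4921 on the Lcn5 side. Lcn9, an epididymal lipocalin, was at 15990.0, 24007 and 24016 against 5171, 9937 and 10654 CPM, and Ly6g5b at 1204, 1490.4 and 1517 against 377, 656 and 590.4 CPM. Spink13 was higher on the Lcn5 side, at 276, 325 and 266 against 183, 202 and 169 CPM, but was above the other caput cells on both sides.

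**Figure D2:**
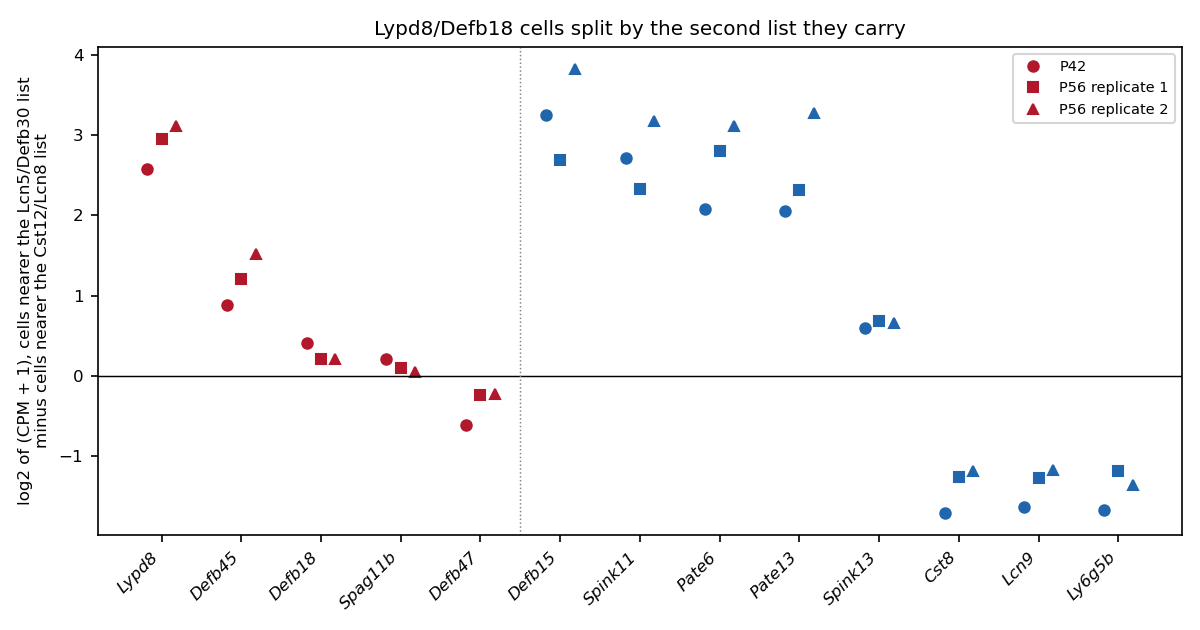
Log2 difference in CPM + 1 between members on the Lcn5 side and on the Cst12 side (y axis) for the 5 ranking genes (red) and for 8 other genes (blue), with a symbol for each library. Lypd8, Defb45, Defb15, Spink11, Pate6 and Pate13 lie above 0 and Defb47, Cst8, Lcn9 and Ly6g5b below 0 in all 3 libraries.

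The 5 genes also differed in how many single cells held a UMI of them. Lypd8 had no UMI in 15.5%, 25.4% and 51.6% of members, while Spag11b was found in every member and Defb18 lacked a UMI in 0.375%, 1.30% and 5.06%. The median cell held 39, 29 and 19 UMIs of Defb18 and 58, 67 and 30 of Defb47, but 4, 2 and 0 of Lypd8. After thinning each cell to 1000 UMIs (1 P42 cell was shallower and was left out), Lypd8 was detected in 57.2%, 45.3% and 31.6% of members and in 20.6%, 27.7% and 10.98% of macrophages. Defb47 was then detected in 82.6%, 80.7% and 53.7% of members with Lypd8 and in 97.4%, 97.1% and 83.9% of members without it. Defb47 was detected in 88.8%, 91.5% and 80.6% of members with Defb18 and in 93.8%, 72% and 55.0% of those without it (16, 100 and 189 cells). The limit on the summed share ties the 5 genes to each other, and its part in these shares was not tested.

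Outside the ranking sets, Spink13 had the largest excess over both other groups of caput principal cells, judged by the smallest of its ratios in 3 libraries. Spink13, a Kazal-type serine protease inhibitor of epididymal secretion, was at 240.0, 265 and 208 CPM, against 16.6, 16.1 and 10.2 in Cst12/Lcn8 cells and 32.2, 26.6 and 21.1 in Lcn5/Defb30 cells. Macrophages held 48.5, 36.4 and 50.5 CPM, below members in each library. Corpus and cauda principal cells held 47.9, 65.6 and 58.9 and 25.3, 44.7 and 52.4 CPM, so that Spink13 was not absent from the later duct.

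Serpinf2, which encodes alpha-2-antiplasmin, was at 141, 85.9 and 69.8 CPM in members, 33.3, 29.8 and 23.6 CPM in Cst12/Lcn8 cells and 42.6, 21.6 and 17.1 CPM in Lcn5/Defb30 cells. Wfdc2, a whey acidic protein domain protein also known as HE4, was at 121, 56.0 and 54.5 CPM, against 41.1, 20.8 and 24.0 CPM in Cst12/Lcn8 and 31.7, 16.5 and 14.5 CPM in Lcn5/Defb30 cells. These genes, like Spink13, encode secreted proteins with inhibitor domains. The polarity gene Scrib was at 111, 127 and 122 CPM, against 41.9, 50.3 and 50.2 CPM in Cst12/Lcn8 and 38.1, 39.2 and 34.7 CPM in Lcn5/Defb30 cells, and the homeodomain cofactor gene Hopx at 174, 136 and 121 CPM, against 47.6, 37.6 and 34.2 CPM in Cst12/Lcn8 and 80.7, 59.3 and 45.6 CPM in Lcn5/Defb30 cells. Teddm1b, a transmembrane epididymal protein gene, was at 519, 478 and 326 CPM, against 40.8, 32.5 and 19.2 CPM in Cst12/Lcn8 and 176, 206 and 149 CPM in Lcn5/Defb30 cells. All of them were above the macrophage level in every library.

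Few genes behaved so. Of 2240 genes with 50 CPM or more in every library of a caput group, 11 (0.491%) were at least 2-fold above both other groups in all 3 libraries, 3 of them ranking genes (Lypd8, Defb18 and Defb47), and 1 (0.0446%) was at least 2-fold below both. That gene was Defb21, a beta-defensin at 97.4, 132 and 117 CPM in members, 447, 452 and 327 in Cst12/Lcn8 cells and 1021, 1869.7 and 1741 in Lcn5/Defb30 cells. Macrophages held 279.9, 574 and 452 CPM of Defb21, above members in each library. Crisp1, a cysteine-rich secretory protein that binds sperm, was at 53.2, 107 and 193 CPM in members, 94.8, 385 and 477 in Cst12/Lcn8 cells, 334, 404 and 727 in Lcn5/Defb30 cells and 67.9, 222 and 314 in macrophages. Against single groups the counts were larger, with 75 genes (3.35%) at least 2-fold above and 34 (1.52%) below Cst12/Lcn8 cells, and 52 (2.32%) above and 86 (3.84%) below Lcn5/Defb30 cells. The cells were chosen with genes of these same libraries, so none of these differences was tested.

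Secreted proteins were among the most abundant transcripts of the members. Gpx5, a selenium-free glutathione peroxidase secreted in the caput, was the most abundant gene at 65264, 109875 and 107347 CPM. Beta-defensins together made up 113785, 156686 and 130932 CPM, with 19 of 42 genes at 50 CPM or more in all 3 libraries. Of the 42, 9 were used to choose cells, among them Spag11b and Defb47, so this sum is set in part by the rule, as are those of lipocalins and cystatins through Lcn8, Lcn5 and Cst12. After Spag11b came Defb20 at 28252, 47942 and 39993 CPM, and Defb25 was at 6401, 7713 and 6136 CPM. Lipocalins, carriers of small lipophilic molecules, summed to 30142, 44408 and 49716 CPM, led by Lcn9 (9443, 16877 and 18735 CPM), Lcn8 (7452, 14244 and 17525 CPM) and Lcn2 (7093, 7391 and 7699 CPM). Cystatins, inhibitors of cysteine proteases, summed to 20528, 27551 and 31768 CPM, led by Cst11 (8269, 8730.5 and 8845 CPM) and Cstdc2 (5249, 9229.8 and 11237 CPM).

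The lipocalin and cystatin sums were lowest at P42 in these values. Adam7, a membrane protein that passes to sperm, was at 6674, 7956 and 6988 CPM, and the Kazal, Kunitz and WAP inhibitors summed to 15973, 14420.0 and 13783 CPM with Wfdc10 in the lead (5529.6, 5573 and 4476 CPM). Slc38a5, a glutamine transporter gene, was at 3164, 2017 and 1552 CPM, and the chaperones Hsp90b1 and Hspa5 of the endoplasmic reticulum at 2551, 2334 and 2499.8 and 2612, 2144 and 2261 CPM. Macrophages held 22309, 46727 and 46828 CPM of Gpx5 and 8354, 13536 and 12526 CPM of Lcn9, and the part of such RNA in the levels of members was not tested.

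The step from these cells to principal cells of the corpus and the cauda was tested over the 3 pools, with the pool as a block. Corpus principal cells (3743) were those at or above percentile 70 of their library in the share of Defb22, Defb26, Cyp17a1, Glb1l3 and Bsph2. Cauda principal cells (3516) were chosen likewise by the share of Spink14, Smpx, Klk1b27, Azgp1 and Adgrg7. Both limits were ranks within a library, with no fixed lowest share. Genes that chose any of the cells were left out of the counts of gene lists. They remain in the counts over all genes. The choice of cells also bears on genes that go with them, and its part in these counts was not tested. Calls needed a log2 fold change of 1 or more in either direction and, in edgeR's quasi-likelihood test, a p under 0.05 after Benjamini-Hochberg adjustment. Against the corpus, 1789 of 13534 genes (13.2%) were higher in members and 1842 (13.6%) lower, 26.8% in all. Against the cauda, 1531 (11.3%) were higher and 1673 (12.4%) lower, 23.7% in all. The counts of gene lists below are to be read beside these shares and were not tested against them.

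Leaving out P56 replicate 1 or replicate 2 lowered the counts to 1785 and 2220 genes against the corpus, of which 1776 and 2167 were called the same way with all pools, and to 1329 and 1811 against the cauda. The P42 corpus cells held 1523 CPM of 5 fibroblast markers against 219 and 296 at P56, and without the P42 pool 4586 genes were called against the corpus, 3495 of them among the 3631 called with it. The P42 cauda cells stood further apart, with 27453 CPM of 5 fibroblast markers against 939 and 772 in the P56 cauda cells. Caput P42 cells with at least 60% of that list held 5523 CPM. The P42 cauda cells also held 2042 CPM of 6 macrophage markers, against 61.9 and 87.4 at P56. They remain in the cauda means, SDs and main tests given here. Without the P42 pool 4322 genes were called against the cauda, 2920 of them among the 3204 called with it. Of the genes higher in members, 516 of 1789 (corpus) and 518 of 1531 (cauda) were above the level of caput macrophages in all 3 libraries, and 480 and 278 were at or below it in all 3.

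Lipocalins and cystatins were mostly higher in members. Of 7 lipocalins tested, 6 were higher than in the corpus and 1 lower (median log2 fold change 9.60, against -0.01 over all genes), and 5 were higher and 1 lower than in the cauda (median 9.62, all genes -0.02). Lcn6 was at 2437, 2179 and 1882 CPM in members, 1.83 ± 1.20 CPM in the corpus (mean ± SD, n = 3) and 1.45 ± 1.49 in the cauda. Its edgeR values were log2 fold change 10.29 ± 0.46 (SE), adjusted p = 5.88e-06, and log2 fold change 10.83 ± 0.48 (SE), adjusted p = 7.87e-06. Ptgds, lipocalin-type prostaglandin D synthase, went the other way, at 751, 735 and 681 CPM in members and 3486 ± 876 in the corpus (log2 fold change -2.25 ± 0.50 (SE), adjusted p = 0.00914 by edgeR). Of 9 cystatins, 7 were higher against each segment and none lower, with medians of 6.64 and 8.06, or 5.40 and 5.74 with the genes at 0 in a segment set to their lower bound. Cst11, an inhibitor of the caput, was at 8615 ± 305 CPM in members (SD, n = 3), 6.94 ± 3.08 in the corpus and 9.29 ± 10.3 in the cauda.

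Beta-defensins changed in both directions. Of 26 tested, 9 were higher and 13 lower than in the corpus, and 12 higher and 12 lower than in the cauda, with medians of -1.20 and -0.40. Defb41, which lies near Defb18 at chr1:18250978-18265138, was at 4910.0, 5574 and 5419.6 CPM in members and 6.02 ± 2.17 in the corpus (log2 fold change 9.78 ± 0.47 (SE), adjusted p = 7.39e-06 by edgeR). Defb38 was at 3.89, 2.698 and 7.30 CPM in members and 3169 ± 292 in the corpus (log2 fold change -9.54 ± 0.48 (SE), adjusted p = 8.89e-06). Defb9 was at 0.729, 1.35 and 2.49 CPM and at 1354 ± 411 in the cauda (log2 fold change -9.89 ± 0.57 (SE), adjusted p = 1.73e-05). The beta-defensin genes of members were thus not simply higher or lower than those of the later segments.

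The same held for the Pate, Ly6 and Lypd proteins and for the protease inhibitors. Of 22 Pate, Ly6 and Lypd genes tested, 8 were higher and 9 lower than in the corpus, and 7 higher and 9 lower than in the cauda (medians -0.09 and -1.15). Ly6g5c was at 2907, 3749 and 3963 CPM in members and 1.85 ± 0.620 in the corpus (log2 fold change 10.83 ± 0.48 (SE), adjusted p = 5.73e-06 by edgeR). Pate3 had no UMI in members and 28.5 ± 1.03 CPM in the corpus, at least 163-fold higher there against a floor of 3 UMIs over all members. Pate9 likewise had no UMI in members and 27.8 ± 4.59 CPM in the cauda, at least 159-fold higher. Of 31 Kazal, Kunitz and WAP inhibitors, 9 were higher and 13 lower than in the corpus and 10 higher and 13 lower than in the cauda (medians -0.67 and -0.66), with Wfdc13 at 11.2, 22.1 and 35.1 CPM in members and 8387 ± 875 in the corpus.

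Among serpins, Serpinf2 was higher in members than in the corpus, where it was at 0.173 ± 0.162 CPM (log2 fold change 8.64 ± 0.68 (SE), adjusted p = 5.43e-05 by edgeR), and higher than in the cauda, at 0.557 ± 0.889 CPM (adjusted p = 7.59e-05). In all, 4 of 17 serpins were higher and 3 lower than in the corpus, and 1 higher and 9 lower than in the cauda (medians -0.11 and -2.07). Gpx5 was higher against both (log2 fold change 10.13 ± 0.80 (SE), adjusted p = 5.71e-05 for the corpus and 7.90 ± 0.73 for the cauda, adjusted p = 0.000157), whereas Gpx3, a secreted peroxidase with selenium, was lower (log2 fold change -6.42 ± 0.66 (SE), adjusted p = 0.000225 and -6.65 ± 0.67, adjusted p = 0.000258). Crisp1, at 19409 ± 6378 CPM in the corpus and 23053 ± 12647 in the cauda, was lower in members by edgeR (log2 fold change -7.60 ± 0.52 (SE), adjusted p = 2.86e-05, and -7.71 ± 0.52, adjusted p = 3.37e-05). Of 40 glutathione and redox enzymes tested, 7 were higher and 14 lower than in the corpus and 9 higher and 10 lower than in the cauda.

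Transport and signalling genes changed as well. Slc38a5 was at 3164, 2017 and 1552 CPM against 2.98 ± 2.71 in the corpus (log2 fold change 9.84 ± 0.59 (SE), adjusted p = 1.67e-05 by edgeR), and Slc7a5, a large neutral amino acid transporter gene, was also higher (log2 fold change 4.99 ± 0.28 (SE), adjusted p = 1.22e-05). Of 15 solute transporter genes tested, 7 were higher and 6 lower than in the corpus and 6 and 6 against the cauda. Car4, a membrane carbonic anhydrase gene, was at 0.972, 0.405 and 1.43 CPM in members and 719 ± 23.2 in the corpus (log2 fold change -9.80 ± 0.82 (SE), adjusted p = 7.50e-05). Srd5a2, the 5-alpha reductase that makes dihydrotestosterone, was higher than in the corpus (log2 fold change 1.66 ± 0.35 (SE), adjusted p = 0.00717) and the cauda (log2 fold change 3.10 ± 0.37 (SE), adjusted p = 0.000618), at 214 ± 31.1 CPM in members. Of 17 genes of the initial-segment Ros1 and ERK pathway, 6 were higher and 3 lower against each segment, with Dusp6, a phosphatase of ERK, at 72.3 ± 11.8 CPM in members and higher by 2.54 ± 0.16 and 1.42 ± 0.15 (edgeR adjusted p = 2.19e-05 and 0.000356).

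Hox genes, which set position along the body axis, were called more often higher than lower in members. Of 21 tested, 12 were higher and none lower than in the corpus (median 1.25), and 7 higher and 1 lower than in the cauda (median 0.83). Hoxd4 was at 99.1, 90.1 and 89.8 CPM in members and 24.8 ± 8.76 in the corpus (log2 fold change 1.84 ± 0.29 (SE), adjusted p = 0.00189 by edgeR). Hoxb7 was at 274, 343 and 397 CPM and 130.0 ± 9.11 in the corpus (log2 fold change 1.25 ± 0.28 (SE), adjusted p = 0.00923). Caput macrophages held 46.1, 71.1 and 73.5 CPM of Hoxd4 and 224, 262 and 359.7 of Hoxb7, below members in each library. Agr2, a disulphide isomerase of secretory cells, was at 308, 259 and 259 CPM in members, 2.88 ± 0.938 in the corpus and 1.54 ± 0.623 in the cauda. Among 21 epithelial transcription factors, 6 were higher and 5 lower than in the corpus and 2 higher and 7 lower than in the cauda.

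The most extreme single genes came from several families. Clpsl2, a colipase-like gene, was at 2396, 4186 and 3465 CPM in members and 1.65 ± 0.629 in the corpus (log2 fold change 10.93 ± 0.65 (SE), adjusted p = 1.62e-05 by edgeR). Teddm1a, which shares much sequence with Teddm1b so that reads of the pair may be hard to separate, was at 5069.6, 7043 and 6639 CPM and 4.33 ± 4.68 in the cauda (log2 fold change 10.94 ± 0.75 (SE), adjusted p = 3.41e-05). Ppy was at 67.8, 50.6 and 42.8 CPM in members and had no UMI in cauda principal cells, at least 473-fold lower there against a floor of 3 UMIs over the group. Among genes lower in members, Ltf, which encodes the iron-binding antimicrobial protein lactotransferrin, was at 0, 0.270 and 0.891 CPM against 257 ± 81.6 in the corpus (log2 fold change -9.37 ± 0.65 (SE), adjusted p = 2.93e-05) and 439 ± 116 in the cauda (log2 fold change -10.17 ± 0.65 (SE), adjusted p = 2.74e-05). Npy, the neuropeptide Y gene, was at 7.04, 9.85 and 13.01 CPM against 3108 ± 814 in the corpus (log2 fold change -8.39 ± 0.30 (SE), adjusted p = 4.84e-06).

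Over all genes, 13.2% were higher and 13.6% lower than in the corpus, and 11.3% higher and 12.4% lower than in the cauda. Of 8 RNase A family genes tested, 2 were higher and 3 lower than in the corpus and 2 were higher and 3 lower than in the cauda, with medians of -0.59 and -0.72, and Rnase10 was the highest in members at 2249.8, 2804 and 2904 CPM. Of 9 ADAM genes, 3 were higher and 0 lower than in the corpus and 2 were higher and 1 lower than in the cauda, with medians of 0.79 and 0.24. Adam7 was at 2704 ± 554 CPM in the corpus (log2 fold change 1.37 ± 0.38 (SE), adjusted p = 0.0235 by edgeR). Of 12 sperm-binding and glycosidase genes, 3 were higher and 6 lower than in the corpus and 2 were higher and 1 lower than in the cauda, with medians of -0.96 and 0.57. Clu, the chaperone clusterin found on sperm, was at 3802, 2715 and 2505 CPM in members and 363 ± 153 in the corpus (2.99 ± 0.39 on the log2 scale, edgeR adjusted p = 0.000748). Of 3 CRISP genes, 0 were higher and 1 lower than in the corpus and 1 were higher and 1 lower than in the cauda, with medians of -0.60 and 1.25.

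Genes of the general machinery of the secretory cell were counted in the same way. For the first 2 lists the shares called against the corpus were near or below the 13.2% higher and 13.6% lower of all genes. Of 36 genes of endoplasmic reticulum chaperones and the secretory pathway, 4 were higher and 1 lower than in the corpus and 6 were higher and 1 lower than in the cauda, with medians of 0.20 and 0.22. Of 15 tight junction and apical membrane genes, 2 were higher and 2 lower than in the corpus and 1 were higher and 2 lower than in the cauda, with medians of 0.14 and -0.52. Of 20 genes of water, ion and acid-base transport, 7 were higher and 6 lower than in the corpus and 4 were higher and 5 lower than in the cauda, with medians of 0.05 and -0.14. Kcnk1, a potassium channel gene, led this list in members at 357, 253 and 251 CPM (0.19 ± 0.26 against the corpus, edgeR adjusted p = 0.599). Of 9 retinoid handling genes, 3 were higher and 2 lower than in the corpus and 1 were higher and 3 lower than in the cauda, with medians of 0.64 and -1.18. Of 10 genes of androgen and estrogen signalling, 3 were higher and 1 lower than in the corpus and 4 were higher and 1 lower than in the cauda, with medians of 0.28 and 0.66. Of 14 immediate early and heat shock genes, 0 were higher and 6 lower than in the corpus and 0 were higher and 9 lower than in the cauda, with medians of -1.43 and -1.88. The direction against the corpus turned with age for some of them, as Fos was at 1540.3, 319.6 and 241 CPM in members and 1238, 1792 and 1559 CPM in corpus cells, and Jun at 1979, 405 and 388 and 989, 1049 and 833 CPM, higher in members at P42 and lower at P56.

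**Figure D3:**
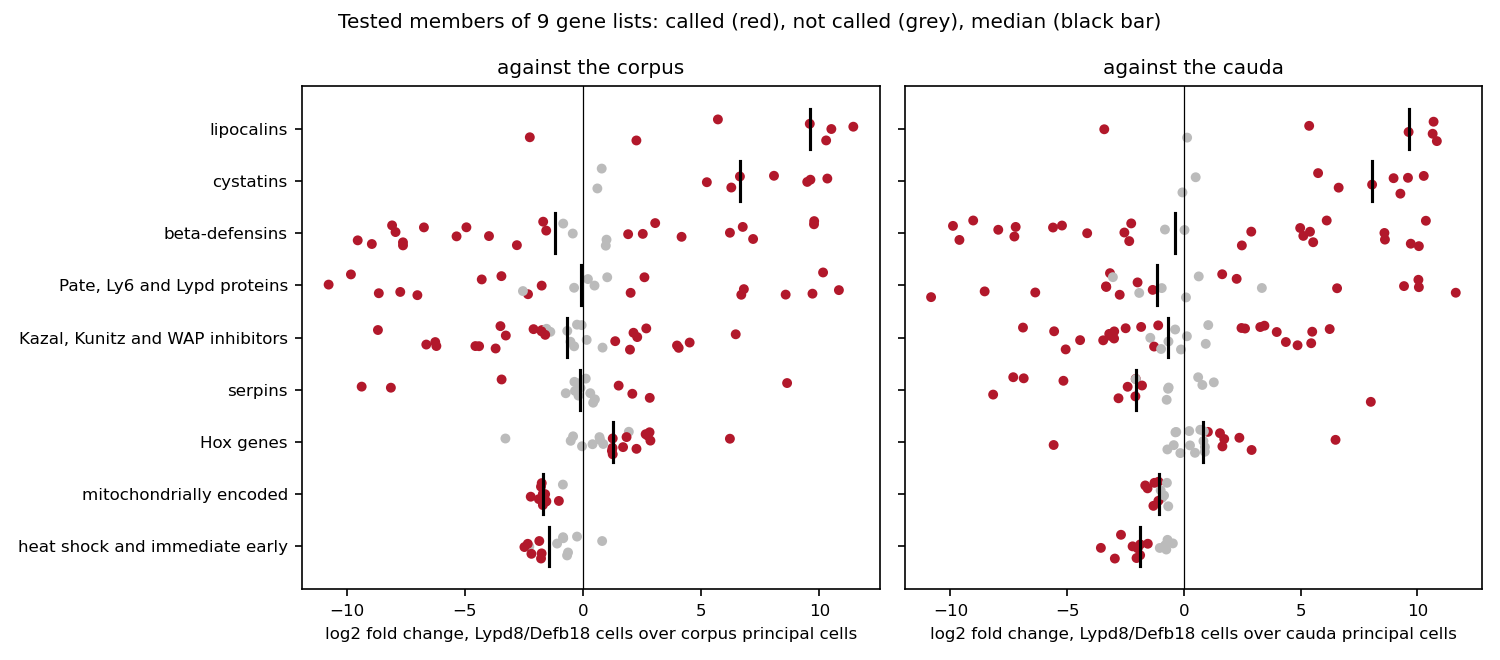
Log2 fold change of the tested genes of 9 lists (x axis) in Lypd8/Defb18 cells over corpus (left) and cauda (right) principal cells, 1 point per gene, called genes in red, black bars at the medians, vertical scatter without meaning. Lipocalins and cystatins lie mostly to the right of 0, mitochondrially encoded genes to the left, and beta-defensins on both sides.

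Mitochondrially encoded transcripts were lower in members than in both later segments. They made up a mean of 6.41%, 6.14% and 5.43% of UMIs per member cell, against 18.5% ± 1.69 in corpus and 14.7% ± 1.16 in cauda principal cells (SD, n = 3 libraries). The low share was not particular to members, as Cst12/Lcn8 cells had 5.69%, 5.49% and 4.65% and Lcn5/Defb30 cells 8.63%, 8.63% and 8.05%. Library means of members did not overlap with those of corpus or cauda principal cells. An exact permutation test of the range of the means of members, corpus and cauda cells within pools gave p = 0.0278, the smallest this design allows. Of 11 such genes tested, 10 were lower than in the corpus and 6 lower than in the cauda, with none higher (medians -1.70 and -1.09). The share also moves with the quality of cells, whose part in the difference was not tested. For mt-Nd2, members had 1378, 1359 and 1568 CPM and the corpus 6240.2 ± 512 (log2 fold change -2.21 ± 0.25 (SE), adjusted p = 0.000353 by edgeR).

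Age was the remaining comparison, P56 (2 libraries) against P42 (1 library), with the spread taken from the P56 pairs of all 3 segments, so that the lone P42 library was assumed to vary like them. Age and library cannot be told apart at P42. In members 120 of 16017 genes (0.749%) were higher and 89 (0.556%) lower at P56, 209 in all (1.30%). Without TMM scaling the median of all genes moved by -0.39 and the split became 85 higher and 650 lower, so changes are given relative to the median. With only the 3 caput libraries in the fit 102 genes were called, and with members free of any lineage gene 86.

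The clearest group was lower at P56, immediate early and heat shock genes, which cells induce within minutes of a stimulus or stress. Of 14 tested, 10 were lower and none higher (median -1.75, all genes 0). Fos was at 1540.3, 319.6 and 241 CPM (log2 fold change -2.05 ± 0.22 (SE), adjusted p = 0.000887 by edgeR). Jun was at 1979, 405 and 388 CPM (log2 fold change -1.92 ± 0.19 (SE), adjusted p = 0.000855), Ier2 at 579, 129.7 and 141 CPM (log2 fold change -1.70 ± 0.16 (SE), adjusted p = 0.000651) and Atf3 at 422, 78.1 and 67.5 CPM (log2 fold change -2.13 ± 0.18 (SE), adjusted p = 0.000323). In caput macrophages of the same libraries Fos was at 3605, 1266 and 961 CPM and Jun at 3679, 1249 and 1326 CPM, higher than in members and lower at P56 as well. Cst12/Lcn8 cells (1219.8, 238 and 163 CPM of Fos), Lcn5/Defb30 cells (2155, 398 and 348 CPM) and cauda principal cells (3786, 1426 and 1455 CPM) were lower at P56 too. The P42 cauda cells also held 27453 CPM of fibroblast markers, against 939 and 772 at P56. Of these 939 P42 cells, 92 had at most 0.2% collagen UMIs, against 1257 of 1322 and 1207 of 1255 at P56. The part of this difference in the fall of Fos in the cauda was not tested. In corpus principal cells Fos was at 1238, 1792 and 1559 CPM, higher at P56 than at P42. Ier2 there was at 278, 252 and 225 CPM, lower at P56 before TMM scaling. With TMM scaling, the log2 change of Ier2 in members (-1.70) minus that in corpus cells was -2.01 ± 0.24 (SE). The fitted change of Ier2 in corpus cells was thus not a fall. Col3a1, a fibroblast collagen gene, was at 80.4, 14.03 and 11.05 CPM in members and 351, 8.67 and 11.5 in macrophages. In members 5 endothelial markers summed to 50.8, 7.29 and 11.4 CPM and 2 cycling markers to 56.6, 11.6 and 11.9 CPM. Macrophage markers, at 142, 96.1 and 159 CPM, did not fall in both P56 libraries. Caput endothelial cells held 5235, 2082 and 1365 CPM of Fos. The part of RNA from other cells in the changes with age was not tested.

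Across the calls, 87 of the 89 genes lower at P56 and 105 of the 120 higher ones went the same way in caput macrophages. The direction in macrophages was read from CPM without TMM scaling. The share of all tested genes that went the same way was not counted, so these counts do not set the called genes apart. Of all 89 and 120, 10 and 25 were above the macrophages of the same library at the age where they were high, 3 and 13 of them at 50 CPM or more. The change itself helps a gene pass at that age, so the counts do not show that these changes stand apart from background RNA. Among these, Wfdc18, a WAP inhibitor gene, was lower at P56 (61.0, 6.34 and 13.5 CPM, log2 fold change -2.27 ± 0.30 (SE), adjusted p = 0.00393 by edgeR), with 46.7, 20.8 and 31.5 CPM in macrophages, above members in both P56 libraries, while Ly6g5b and Xlr4a were higher. Ly6g5b was at 703, 1068 and 1150.1 CPM in members and 697, 874 and 830.1 in macrophages (log2 fold change 1.05 ± 0.19 (SE), adjusted p = 0.0183), and Xlr4a, of an X-linked lymphocyte-regulated family, at 20.9, 57.1 and 67.3 CPM (log2 fold change 1.96 ± 0.21 (SE), adjusted p = 0.000887). Macrophages held 26.7, 45.1 and 45.5 CPM of Xlr4a, above members at P42. The Cst12 side, where Ly6g5b was higher, made up 36.5%, 43.8% and 57.8% of members. The part of this shift in the changes with age was not tested.

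Genes of several secreted proteins were among those higher at P56, and others were lower. Over all genes, 0.749% were higher and 0.556% lower. Of 32 Kazal, Kunitz and WAP inhibitors tested, 3 were higher and 2 lower, and of 3 CRISP genes 2 were higher and 0 lower. Spint4, a Kunitz inhibitor, was at 26.5, 66.2 and 139 CPM in members and 41.8, 293 and 412 in macrophages (log2 fold change 2.32 ± 0.41 (SE), adjusted p = 0.0162 by edgeR). Crisp1 was at 53.2, 107 and 193 against 67.9, 222 and 314 CPM (log2 fold change 1.87 ± 0.33 (SE), adjusted p = 0.0162), and Crisp4 at 281, 431 and 634 against 318, 359 and 479 CPM (log2 fold change 1.31 ± 0.19 (SE), adjusted p = 0.00743). Sperm markers moved with age in the same cells, from 5.34 CPM summed at P42 to 69.1 and 298 at P56, and their part in these results was not tested. Of the beta-defensins 1 of 28 tested was called, Defb23 at 33.0, 54.1 and 69.7 CPM in members and 78.8, 283 and 336 in macrophages (log2 fold change 1.29 ± 0.24 (SE), adjusted p = 0.0232), and no lipocalin or cystatin was.

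The change with age differed from that of corpus principal cells for 132 genes (0.824%) in an interaction test, 53 (0.331%) with a larger and 79 (0.493%) with a smaller log2 change in members. This test held no pool term, so it left aside that caput and corpus libraries of a pool came from the same mice. The 79 held 10 of 14 immediate early and heat shock genes. The split depended on the library, with 103 larger and 66 smaller without caput P56 replicate 1 and 29 larger and 54 smaller without replicate 2.

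**Figure D4:**
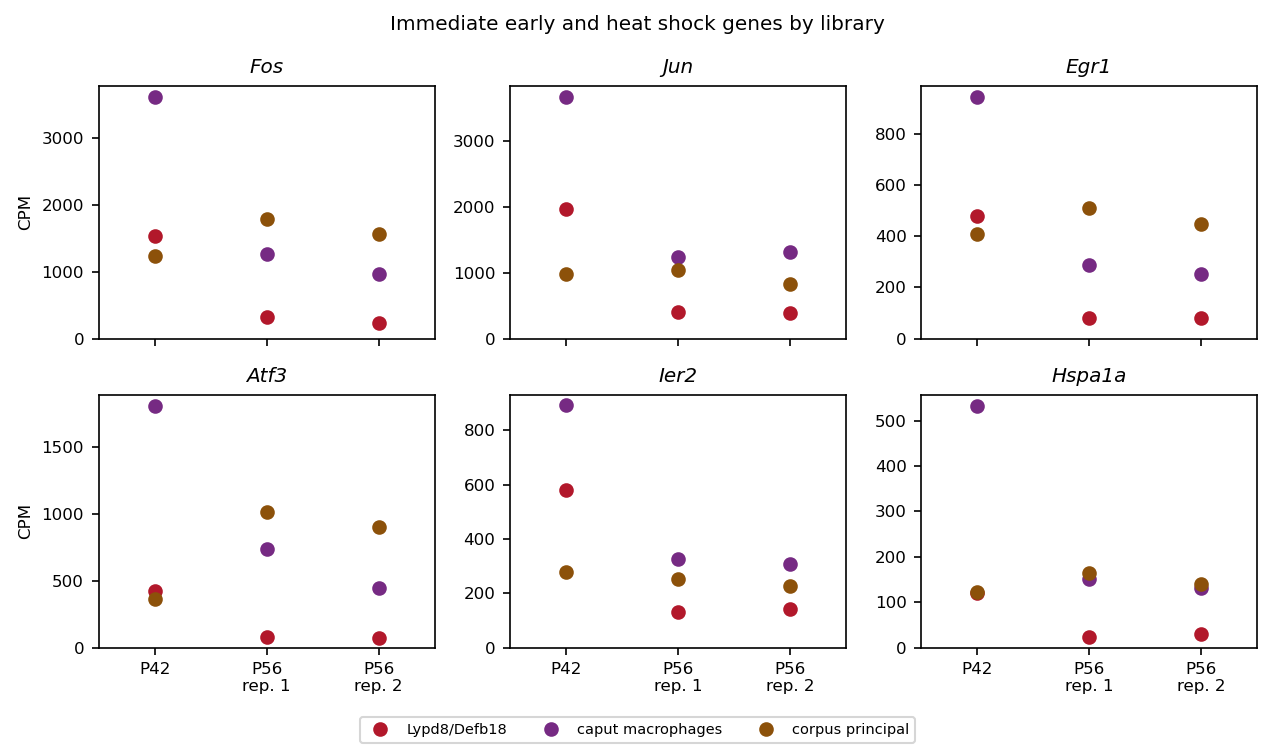
CPM of 6 immediate early and heat shock genes (y axis from 0, a scale for each gene) in Lypd8/Defb18 cells, caput macrophages and corpus principal cells of each library (x axis), without error bars. The 2 P56 libraries lie below P42 in members and in macrophages for all 6 genes, while Fos in corpus cells was 1238 at P42 and 1792 and 1559 CPM at P56.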

How the data were processed

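Single-cell RNA-seq (Singleron GEXSCOPE) was performed on caput, corpus and cauda from 1 pool of P42 and 2 pools of P56 mice. Per the labels and the study's methods, the authors trimmed reads with fastp, took barcodes and counted UMIs with UMI-tools, and aligned with STAR 2.7.3a to GRCm38.p6, assigning reads to exons with featureCounts. The deposited matrices hold raw UMI counts without normalization, 1 column per barcode. Column names carry the segment and, for P56, the replicate number. The remaining columns of each segment were taken as P42, which the cell numbers given in the study's supplement for these columns also bear out.

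Cells with 300 to 4000 genes, at most 20000 UMIs, under 50% mitochondrial UMIs and at most 3 of 15 lineage genes were kept. The limit on lineage genes removed 32.9%, 10.8% and 31.7% of caput cells (P42, P56 replicate 1, P56 replicate 2). No doublet caller was run, so doublets within the limits remain. UMIs were summed per library and cell group, leaving 5 globin genes out, and tested with edgeR 4.0.16 (TMM, filterByExpr, quasi-likelihood test, Benjamini-Hochberg adjustment) on R 4.3.3. Segments of 1 pool came from the same mice, so the pool entered the segment comparisons as a block. The main fits for age and the interaction held no pool term. Deviations of same-pool libraries correlated at 0.0786 to 0.587 (9 pairs) and those of different pools at -0.545 to 0.418 (18 pairs, 11806 genes). The replicates are pools of mice. For segments, p-values rest on how the differences between segments varied from pool to pool. For age and the interaction, they rest on the spread between the P56 replicates of each segment. limma 3.58.1 and DESeq2 1.42.0 served alternatives, with other filters, cell limits and scaling. Levels against other caput cells used CPM with a pseudocount of 1. Scripts ran on pandas 2.3.3, scipy 1.17.1 and numpy 2.4.6 under Python 3.11.15, drew figures with matplotlib 3.10.9, and were tested on simulated counts.

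Named genes were the ranking and marker genes, the 10 largest called changes in each direction per comparison at 50 CPM or more, the 12 genes with the largest smallest ratio to the other caput groups in each direction, and in each gene list the 4 most abundant, those called for age and the largest called changes against each segment. The largest changes also had to go the same way in every pool, for age and the interaction in both P56 libraries against P42. Unnamed gene models were left out of the largest changes. Members and lists were chosen with earlier results of these data known. Sequences and positions are from RefSeq, GRCm38.p6. Floors cover counting error only. Some genes that the naming rule selects are not reported here.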

Additional observations from a re-analysis of the deposited data

Results flagged for a closer look

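The change from P42 to P56 in Lypd8/Defb18 cells was set against the same change in corpus principal cells by an interaction term, and the 10 genes that the naming rule picked in each direction are given here, each with a Benjamini-Hochberg adjusted p under 0.05 in edgeR's quasi-likelihood test. Values are the log2 change in members minus that in corpus cells.

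The difference was positive for Spint5 (2.91), P4ha2 (2.81), Lyz2 (2.38), Lingo1 (2.29), Prrx1 (2.26), Hacd4 (2.16), Timp2 (2.16), Apod (1.92), Ifitm2 (1.76) and Hmmr (1.61). Spint5 is a Kunitz inhibitor and P4ha2 a collagen prolyl hydroxylase. Spint5 was at 6.31, 21.2 and 41.9 CPM in members, below caput macrophages (13.3, 90.2 and 212 CPM) in each library. Corpus cells held 644, 432 and 329 CPM of Spint5. Lyz2, a lysozyme gene of macrophages, was at 57.8, 46.7 and 78.6 CPM in members and 177, 29.6 and 36.6 CPM in corpus cells. Prrx1, Timp2 and Apod are known from connective tissue and Hmmr from dividing cells. The P42 corpus cells held 1523 CPM of 5 fibroblast markers against 219 and 296 at P56, 300.4 CPM of 6 macrophage markers against 49.0 and 75.7, and 81.4 CPM of 2 cycling markers against 15.5 and 15.8. Members held 589, 250.1 and 313 CPM of the fibroblast markers and 56.6, 11.6 and 11.9 CPM of the cycling markers, lower at P56 as well. The part of these markers in the differences was not tested.

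The difference was negative for Fosb (-4.14), Atf3 (-4.07), Maff (-3.50), Fos (-3.02), Egr1 (-2.93), Klf6 (-2.92), Hspa1a (-2.65), Sertad1 (-2.62), Btg2 (-2.61) and Dnajb1 (-2.59). Fosb, Atf3, Maff, Fos, Egr1, Klf6 and Btg2 are immediate early genes and Hspa1a and Dnajb1 heat shock genes. Atf3 was at 422, 78.1 and 67.5 CPM in members and 361, 1012 and 901 in corpus cells, lower at P56 in the first and higher in the second. P42 has 1 library in each segment, so that age, library and dissociation cannot be told apart here.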

How the results depend on the processing

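No gene named for a tested comparison reversed in that comparison, under the alternatives in which it was tested. The largest changes were picked for the same direction in every pool, so leaving out a pool could hardly reverse them. Of the values of named genes under alternatives, 19 of 568 lost the threshold against the corpus, 24 of 604 against the cauda, 45 of 390 for age and 4 of 60 for the interaction with age, and the rest kept it. Against the corpus, leaving out a pool gave 1785 to 4586 genes and cells with no lineage gene 2358, where fewer genes (8651) were tested. Against the cauda, leaving out a pool gave 1329 to 4322 genes. With all cells of a segment within the limits as comparison cells, 2904 genes were called against the corpus and 3410 against the cauda. Of these, 2454 and 2576 were called the same way in the main fit. For age, 538 genes were called with no filter on low counts, 102 with the caput libraries alone, 86 with no lineage gene and 735 (85 higher, 650 lower) with TMM factors set to 1, against 120 higher and 89 lower, and leaving out a P56 caput library gave 164 to 199. For the interaction it gave 83 to 169, and without replicate 1 the larger side turned from 79 smaller changes to 103 larger ones. The cause of these shifts was not tested, except that leaving out samples lowers the degrees of freedom. Lypd8 stood at 2325 CPM at a percentile limit of 80 and 1852 CPM with no lineage gene, and Spink13 at 272 CPM at the limit of 80.

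The pools pair the segments because these came from the same mice. With no replicate block, 3322 genes were called against the corpus and 2895 against the cauda. A replicate block for age, with the pool as a random effect in limma, gave 172 genes (88 higher, 84 lower). The estimated pool correlation was -0.00113 and this fit also changed the tool, so the shift from 209 genes is not the effect of the block alone. Leaving P56 replicate 1 or 2 out of all segments for age and the interaction was planned but could not be fitted, since no residual degrees of freedom remained. The alternatives that left out a single caput library, or cells with over 0.2% collagen UMIs (3939 genes against the corpus, 3617 against the cauda, 212 for age), were chosen after seeing the data. The single P42 library limits the age comparison.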
